A study of Drosophila melanogaster with 6 samples.

Results

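Translation initiation factor paralogues are genes that encode alternative forms of the same initiation factor, and 10 of them, from the eIF3 and eIF4 groups, were followed in ovaries of Drosophila melanogaster. They were chosen by name, out of 11983 genes with a probe set of their own on the array, with results of these arrays known: eIF3f2 and eIF4E3 were already on record as higher in one of the genotypes. Levels and differences of the 10 genes between the genotypes are therefore given as a description, without a test. The 4 general forms are eIF3f1, eIF3g1, eIF4E1 and eIF4G1. The 6 others, called the second forms here, are eIF3f2, eIF3g2, eIF4E3, eIF4E7, eIF4EHP and eIF4G2. All 10 genes were represented, by 11 probe sets in total, since eIF4EHP had a pair of them.

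The arrays held 3 samples of bam[delta86] mutant ovaries (bam) and 3 of ovaries of the stwl bam double mutant, so loss of bam is common to both genotypes. The sources used here do not give the stwl allele, the strain background or the age of the females. Ovaries that lack bam, a gene needed for daughters of germline stem cells to differentiate, accumulate undifferentiated germ cells beside the somatic cells of the organ. Stonewall, the product of stwl, is a DNA-associated protein that germline stem cells need to persist. Nothing states that the samples of a genotype came from separate crosses. SDs thus measure the spread between samples, which may be technical, and p-values rest on such spread.

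Most messenger RNAs are translated after their 5′ cap is bound by eIF4E, which the scaffold eIF4G joins to the helicase eIF4A and, through the multi-subunit factor eIF3, to the small ribosomal subunit. Drosophila carries extra genes for several of these factors, and some of them are used mainly in the male germ line. eIF4E3 is a cap-binding form known from the testis, and eIF4G2, also called off-schedule, is needed by differentiating male germ cells. eIF4EHP binds the cap without recruiting eIF4G and so represses the messenger RNAs it is brought to. By the RefSeq gene table, eIF3f2 lies on chromosome arm 2R and eIF3f1 on 3R, eIF3g2 on 3R and eIF3g1 on the X, eIF4E1 and eIF4E3 on 3L, eIF4E7 on the X, eIF4EHP and eIF4G2 on 3R, and eIF4G1 on chromosome 4. The general and second forms of the f and g subunits and of eIF4G were thus each on different chromosomes or arms, while eIF4E1 and eIF4E3 shared an arm.

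Levels are log2 values of the quantile-normalized intensity after adding 7.9, and a change is the level in stwl bam minus that in bam. Background was set per array at the 95th percentile over 44 control sets (bacterial and tag sequences). On this scale it was 5.10, 5.34 and 5.23 on bam replicates 1 to 3. On stwl bam replicates 1 to 3 it was lower, at 4.60, 5.07 and 4.99. Counts of arrays below background thus rest on a higher cutoff in bam. Probe sets differ in how brightly they bind, so the level of one gene is not set against that of another. In whole ovaries, fewer cells of a type and less RNA per cell cannot be told apart. The trimmed mean intensity was 220.5 on bam replicate 1 and close to 250.0 on the other 5 arrays, and normalization removed that difference.

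Among the 10 genes, eIF3f2 was far higher in stwl bam ovaries and eIF4E3 was moderately higher, while eIF4EHP and eIF3f1 were slightly higher and eIF4G1 was slightly lower. The levels of eIF3g2 and eIF4E7 lay at or near background in both genotypes. Of the 10 genes, 9 passed the filter on dim probe sets and eIF4E7 did not. In the limma fit over all probe sets 4 of the 9 were called higher in stwl bam and 1 was called lower, where 11.1% and 13% of the 8764 tested genes were called in these directions (24.1% in all). These calls belong to the contrast with which the genes were chosen, and nothing is read from their number.

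**Figure D1:**
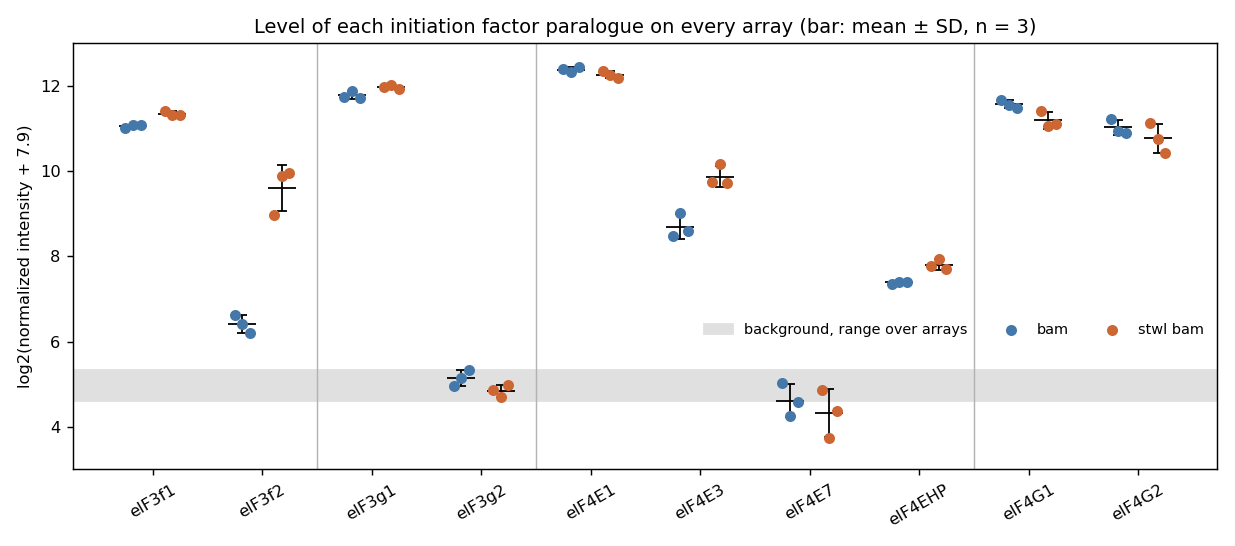
Levels of the 10 genes on every array, as log2 of the normalized intensity plus 7.9, with points for single arrays, bars for mean ± SD (n = 3) and a grey band for the range of background over the arrays. eIF3f2 and eIF4E3 are the genes whose points separate most between the genotypes, and eIF3g2 and eIF4E7 lie in or near the band; heights of different genes are not comparable.

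eIF3f2 encodes a second form of the f subunit of eIF3. Its levels were 6.63, 6.42 and 6.20 in bam replicates 1 to 3 and 8.98, 9.88 and 9.96 in stwl bam replicates 1 to 3. Every stwl bam array was thus more than 2 log2 units above every bam array, and stwl bam replicate 1 was the lowest of its genotype. On the deposited scale the intensities were 75.5, 82.2 and 56.8 in bam against 500.6, 945.0 and 1001.8 in stwl bam, all above the background of their arrays. The mean went from 6.42 ± 0.22 to 9.61 ± 0.55 (SD, n = 3), a change of 3.19 ± 0.26 (SE) or 9.13-fold on the offset scale, the 17th highest change among the 8764 tested genes. The change stayed between 3.01 and 3.51 when any 1 array was left out, and was lowest at 2.88 with an offset 4 times larger.

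The general form eIF3f1 had levels of 11.02, 11.07 and 11.07 in bam and 11.41, 11.32 and 11.33 in stwl bam. The genotypes did not overlap, but the change of 0.30 ± 0.07 (SE) was small beside that of eIF3f2. Both genes of the f subunit were therefore higher in stwl bam, by very different amounts. Within each array, the log2 difference of eIF3f2 minus eIF3f1, set relative to its mean in bam, was 0.25, -0.02 and -0.23 in bam and 2.20, 3.20 and 3.27 in stwl bam. The balance between the forms moved by 2.89 ± 0.37 (SE) towards eIF3f2, or 7.43-fold, and by 2.97 or 2.98 under the other normalizations.

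The g subunit gave another picture. eIF3g1, the general form of this RNA-binding subunit of eIF3, had levels of 11.75, 11.89 and 11.72 in bam and 11.98, 12.03 and 11.93 in stwl bam, a change of 0.19 ± 0.07 (SE). The genotypes did not overlap for eIF3g1, though the highest bam array and the lowest stwl bam array were close. Its second form, eIF3g2, had levels of 4.97, 5.15 and 5.34 in bam and 4.85, 4.70 and 4.98 in stwl bam. It was at or below background on 2 of the 3 arrays in each genotype, the genotypes overlapped narrowly, and its change was -0.30 ± 0.29 (SE). No fold and no shift against eIF3g1 are given, since most of its arrays give only an upper bound.

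Among the cap-binding proteins, eIF4E3 stood out. Its levels were 8.47, 9.02 and 8.60 in bam and 9.74, 10.16 and 9.73 in stwl bam. Every stwl bam array lay above every bam array, and replicate 2 was the highest of each genotype. The deposited intensities were 312.5, 524.4 and 395.1 against 854.0, 1155.9 and 850.3. The mean went from 8.70 ± 0.29 to 9.87 ± 0.25 (SD, n = 3), a change of 1.18 ± 0.17 (SE) or 2.26-fold, which ranked 238th among the changes of all tested genes from the highest down. With single arrays left out it was between 1.03 and 1.34.

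eIF4E1, the general cap-binding form, had levels of 12.40, 12.32 and 12.43 in bam and 12.35, 12.25 and 12.20 in stwl bam. The genotypes overlapped and the change was -0.12 ± 0.07 (SE), with a sign that turned to 0.04 with intensities as deposited. The probe set of eIF4E1 carries the suffix that the manufacturer gives to sets matching more than 1 transcript. Relative to the bam mean, the log2 difference of eIF4E3 minus eIF4E1 was -0.24, 0.39 and -0.14 in bam and 1.08, 1.59 and 1.22 in stwl bam. The balance moved by 1.29 ± 0.25 (SE) towards eIF4E3, or 2.45-fold, with no overlap between the genotypes.

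**Figure D2:**
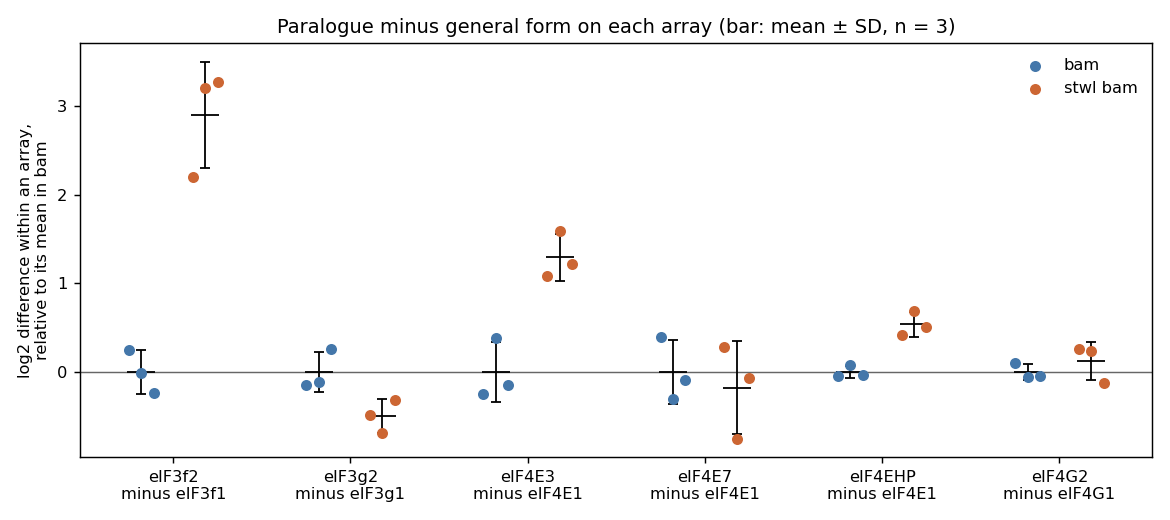
Log2 level of each second form minus that of its general form within an array, relative to the mean of this difference in bam, with points for arrays and bars for mean ± SD (n = 3). eIF3f2 against eIF3f1 shifted by 2.89 and eIF4E3 against eIF4E1 by 1.29, whereas eIF4G2 against eIF4G1 stayed within 0.26 of the bam mean on all arrays; eIF3g2 and eIF4E7 were at or near background, so their points give no shift.

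eIF4EHP, the repressive cap-binding protein, was measured by a pair of probe sets. The brighter one gave 7.36, 7.41 and 7.40 in bam and 7.77, 7.95 and 7.71 in stwl bam, with no overlap and a change of 0.42 ± 0.13 (SE). The dimmer one gave 6.15, 5.85 and 6.32 in bam and 6.26, 6.48 and 7.16 in stwl bam, a change of 0.53 ± 0.27 (SE) with overlapping genotypes. Both sets were above background on all arrays and pointed the same way. Against eIF4E1 the brighter set moved by 0.54 ± 0.09 (SE).

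The last cap-binding gene of the 10, eIF4E7, had levels of 5.03, 4.25 and 4.57 in bam and 4.87, 3.74 and 4.37 in stwl bam. Its only array above background was stwl bam replicate 1, where background was lowest, and its level there was below that on bam replicate 1. It fell below the filter, so no fold is given. A further 2 probe sets are annotated to both eIF4E7 and CG17010 and were not counted for either gene. Over both of these sets, 2 readings exceeded the background of their array, namely an intensity of 23.6 on bam replicate 1 and of 52.4 on stwl bam replicate 3.

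Of the eIF4G scaffold genes, eIF4G1, the general form, had levels of 11.68, 11.55 and 11.49 in bam and 11.41, 11.06 and 11.11 in stwl bam, with no overlap and a change of -0.38 ± 0.10 (SE). eIF4G2 had levels of 11.23, 10.95 and 10.91 in bam and 11.12, 10.75 and 10.43 in stwl bam, where replicate 1 of stwl bam lay within the bam range. Its change was -0.26 ± 0.17 (SE), and it was -0.44 without stwl bam replicate 1 and -0.09 without stwl bam replicate 3. The log2 difference of eIF4G2 minus eIF4G1 moved by 0.12 ± 0.14 (SE), less than its SE. The scaffold form known from male germ cells was thus well above background in ovaries of both genotypes.

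Of the 10 genes, 5 were higher and 1 was lower in stwl bam with no overlap between the genotypes, where this held for 19.6% and 23.1% of all tested genes (42.7% in either direction). This count, too, comes from the contrast that chose the genes, and nothing is read from it. Leaving out 1 array moved the change of eIF4EHP between 0.35 and 0.47, that of eIF4G1 between -0.49 and -0.32 and that of eIF3f1 between 0.27 and 0.32. The limma call of eIF4EHP ended without any 1 of the 6 arrays, that of eIF4G1 without any of the arrays other than stwl bam replicate 1, and that of eIF3f1 without bam replicate 1. With all arrays kept, these calls were also lost in 5, 6 and 3 further alternatives for eIF4EHP, eIF4G1 and eIF3f1. eIF4G1 was called under none of the other normalizations. The 25th and 75th percentiles of the changes of all tested genes were -0.34 and 0.25, and the 5th and 95th were -0.85 and 0.88. The 8 genes other than eIF3f2 and eIF4E3 lay within the latter range.

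**Figure D3:**
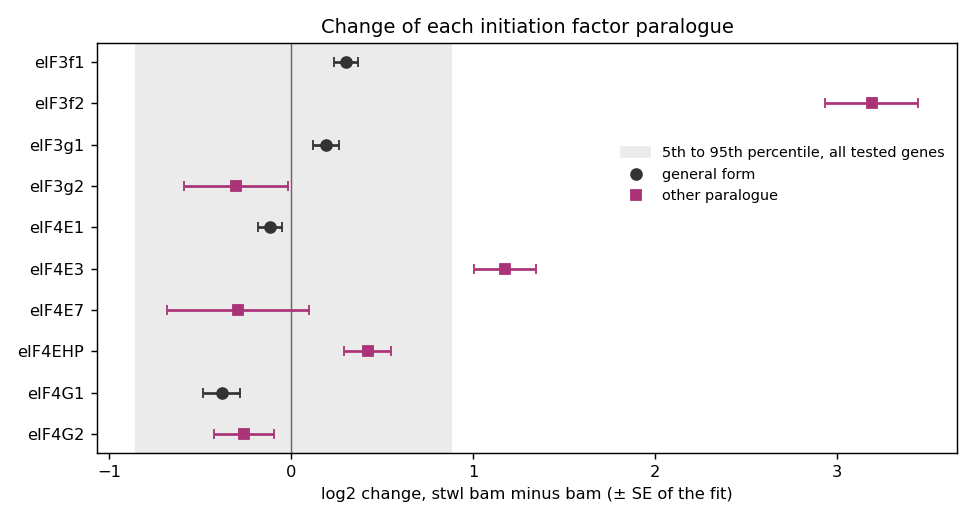
Change of each of the 10 genes on the log2 scale, stwl bam minus bam, with SE bars from the fit, circles for general forms and squares for second forms. Only eIF3f2 at 3.19 and eIF4E3 at 1.18 lie outside the grey band, which spans the 5th to 95th percentile (-0.85 to 0.88) of all tested genes.

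Of 51 other initiation factor and regulator genes listed, 45 had a probe set of their own and 44 were tested. Of these 44, limma called 6 higher and 3 lower, or 20.5%, beside 24.1% of all tested genes, and their median change was -0.0039 beside -0.04 over all tested genes. Among 14 factors of the eIF1, eIF2 and eIF5 groups, 3 were called higher and 0 lower. At an unadjusted limma p under 0.05, 5 were higher and 2 lower. eIF2Bbeta, a subunit of the exchange factor that recharges eIF2, rose by 0.67 ± 0.09 (SE), with a limma adjusted p of 0.00166. DENR, which acts in reinitiation, rose by 0.57 ± 0.09, and eIF6, which keeps ribosomal subunits apart, by 0.40 ± 0.10, with limma adjusted p of 0.00286 and 0.0195. The call of eIF6 was lost without bam replicate 1 and likewise without replicate 2 or 3 of stwl bam.

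Of 12 further eIF3 subunits, 1 rose, 1 fell and 10 were not called. eIF3c rose by 0.27 ± 0.08 (SE) and eIF3b, a scaffold subunit, fell by 0.31 ± 0.07, with limma adjusted p of 0.0339 and 0.0124. The call of eIF3c was lost in 10 of the 16 alternatives, among them each array left out except stwl bam replicate 2, and that of eIF3b in 4, with intensities as deposited, rescaled or centred on the median of all probe sets and without the intensity trend. Of 8 tested eIF4 factors and cap-binding paralogues limma called 0, and 0 had an unadjusted p under 0.05. pAbp, the poly(A)-binding protein gene, was at -0.41 ± 0.20 and eIF4A at -0.10 ± 0.07, with limma adjusted p of 0.179 and 0.348. The probe sets of eIF4B disagreed. The one that represents the gene was at -0.14 ± 0.14, with a limma adjusted p of 0.512. Another was called, at -0.39 ± 0.10, while a further pair was at 0.29 and 0.61.

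Further paralogues in those lists, named after their values were seen, differed in level. NAT1 was at 10.86 in bam and 10.90 in stwl bam, and eIF4A3 at 11.48 and 11.54, well above background. eIF4H2, at 5.10 and 5.12, was below background on 1 array of each genotype. eIF3d2, the second gene of the d subunit, was below background on all 3 bam arrays and 2 of the 3 stwl bam arrays. The same was true of eIF4E4, which was below the filter. eIF4E5, at 4.91 in bam and 5.14 in stwl bam with a change of 0.23 ± 0.31 (SE), was below background on 3 bam arrays and 1 stwl bam array. eIF4E6 was above background on all arrays, at 6.31 ± 0.31 in bam and 6.42 ± 0.37 in stwl bam (SD, n = 3), a change of 0.11 ± 0.26 (SE) with a limma adjusted p of 0.797.

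Among regulators of initiation, 2 rose and 2 fell of 10 tested. Paip2, whose product binds and restrains poly(A)-binding protein, rose by 1.31 ± 0.20 (SE), and Pdcd4, whose mammalian counterpart inhibits eIF4A, rose by 0.78 ± 0.15. Gyf, whose mammalian relatives partner with 4EHP, fell by 0.41 ± 0.09, and Lk6, a kinase of eIF4E, fell by 0.41 ± 0.10. The probe sets of larp disagreed: the one that represents the gene was at -0.03 ± 0.14 and another was called, at 1.57 ± 0.24 with a limma adjusted p of 0.0032. The adjusted p of Paip2, Pdcd4, Gyf and Lk6 in limma were 0.00321, 0.00834, 0.0119 and 0.0199. The call of Gyf was lost without bam replicate 1, and that of Lk6 without replicate 2 or 3 of bam or replicate 3 of stwl bam.

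Elongation and termination were covered by 7 tested genes, of which 1 rose and 2 fell. eEF1gamma rose by 0.34 ± 0.07 (SE), eRF3, a release factor gene, fell by 0.51 ± 0.07, and eEF1alpha2, a second form of the factor that brings aminoacyl-tRNA to the ribosome, fell by 0.65 ± 0.20. Their limma adjusted p were 0.0124, 0.00221 and 0.0449. The call of eEF1alpha2 was lost in 10 of the 16 alternatives, among them each array left out except stwl bam replicate 3, and that of eEF1gamma without bam replicate 1. eEF1alpha1, the other listed eEF1alpha gene, had no probe set of its own, so no shift between these forms is given.

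**Figure D4:**
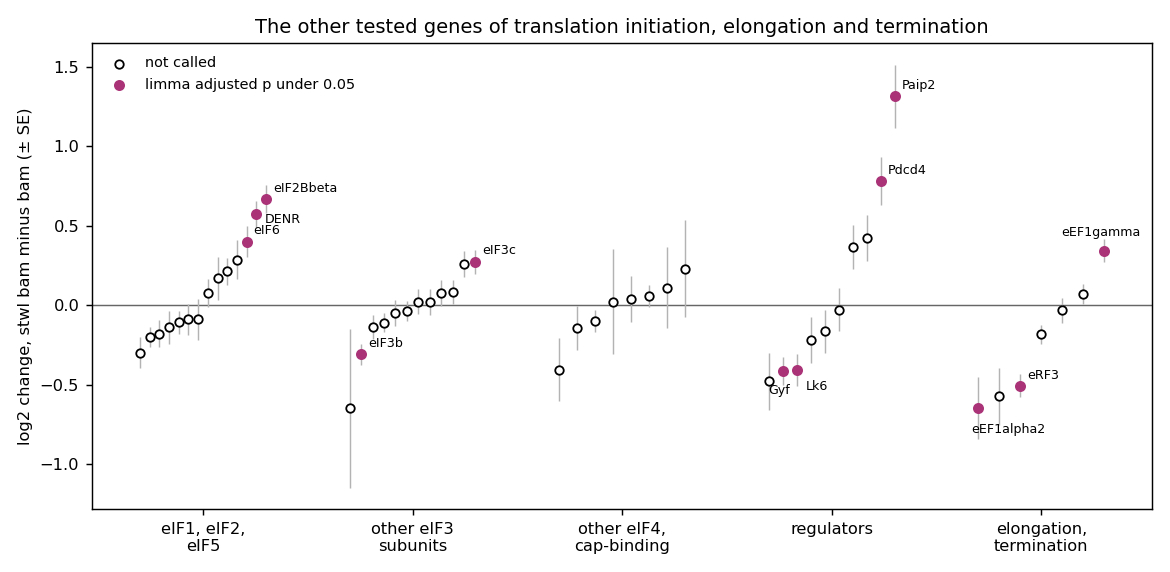
Changes on the log2 scale, with SE bars, of the tested genes of the 4 initiation lists and of elongation and termination, sorted within each list, with filled points for a limma adjusted p under 0.05. Paip2 at 1.31 and Pdcd4 at 0.78 are the highest, and 0 of the 8 genes in the eIF4 list are filled.

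The profile of eIF3f2 over the 6 arrays was set against that of every other tested gene by the root mean square distance of centred log2 levels, with genes that have no name beyond a CG number left aside. The 5 nearest were RpL22-like, a ribosomal protein paralogue, at a distance of 0.27, the hairpin RNA gene hpRNA:CR33940 at 0.30, the antifungal peptide gene Drs at 0.34, the troponin T gene up at 0.43 and the aquaporin gene Drip at 0.54. Their changes were 3.40, 3.04, 2.80, 3.23 and 2.26, and Pearson correlations with eIF3f2 ran from 0.96 to 0.99 over the 6 arrays. Since all 6 arrays belong to the contrast, these are mainly genes with a difference of similar size.

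The genes beside the 10 on the chromosomes were examined as well. Of the 20 protein-coding genes next to one of the 10 in RefSeq order, 15 were tested, with changes from -0.97 to 1.57. Of these 15, limma called 3 higher and 2 lower, where 24.1% of all tested genes were called in either direction. Beside eIF3f2, CG30431 was at 0.87 ± 0.28 (SE) with a limma adjusted p of 0.0515, and CG30432 was below the filter. Beside eIF4E3, CG13678 was at 0.14 ± 0.65 with a limma adjusted p of 0.899, and CG7213 was below the filter. No tested neighbour of either gene was called, but the other neighbour of each was not tested, so nothing is read from this.

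Markers of other cells were read beside these values. Of 29 testis germ cell markers, 28 had a probe set, 10 were above background on all 6 arrays and 9 on none, the latter being dj, djl, Mst84Da, Mst87F, nht, ocn, ProtA, sa and soti. Their summed normalized intensity was 2649 to 2864 in bam and 3190 to 3545 in stwl bam. Phf7, a chromatin reader gene of the male germ line, was the only gene of this list called higher, at 0.92 ± 0.08 (SE). With Phf7 alone left out, the sums were 1873 to 1976 in bam and 1607 to 1939 in stwl bam. The genes called lower stayed in, so nothing is read from the sums without Phf7. In the testis list limma called 1 of 16 tested genes higher and 2 lower, topi at -1.23 ± 0.32 (SE) and CycB3 at -0.57 ± 0.12. The median change of the 16 was -0.04, and 7 of them were above 0. Among those not called, can was at 1.02 ± 0.36 (SE), bol at 1.04 ± 0.43, tomb at 0.61 ± 0.22 and mia at -0.41 ± 0.15, each with no overlap between the genotypes. can was below background on 3 bam arrays and 0 stwl bam arrays, and bol on 2 and 0. The part of testis-type germ cells in the changes of eIF3f2 and eIF4E3 was not tested.

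Other lists also moved. The 7 germ cell markers with a probe set were above background on all arrays, with sums of 10272 to 10657 in bam and 9068 to 10209 in stwl bam, and limma called piwi higher at 0.40 and ovo and otu lower at -0.84 and -0.67. Of the ovarian somatic markers 5 of 6 were, with sums of 2383 to 2706 and 1764 to 2146, and of 5 tested eya was called lower at -1.08. Haemocyte marker sums were 7567 to 7989 against 4280 to 5240, with 6 of 8 genes called lower. Muscle marker sums were 4457 to 5180 against 10132 to 13597, with 4 of 6 called higher and 1 lower. The probe sets of Mf, the brightest gene in the muscle sums, disagreed. The set used was at 1.11 ± 0.10 (SE) and another at -0.30 ± 0.14. Fat body sums were 12181 to 12847 against 9856 to 13154, and that list was split. The brightest gene in these sums was Yp1, at 13.23 ± 0.07 in bam and 12.22 ± 0.90 in stwl bam (SD, n = 3). Of the 8 fat body genes 3 were called higher and 0 lower, but only these 3 had a change above 0. They were Obp99c at 3.51, Tsf1 at 3.21 and apolpp at 1.47. The median change of the 8 was -0.44, and 2 were lower at an unadjusted limma p under 0.05. The part of these cells in the changes of the 10 genes was not tested.

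The 5′ to 3′ signal of the control transcripts, read as a sign of RNA quality, moved with genotype. What moved it was not tested. One of these controls is itself an initiation factor transcript. The control for eIF-4a, the helicase of the cap complex, has probe sets at the 5′ end, in the middle and at the 3′ end. The 5′ set gave intensities of 572.6, 674.3 and 611.9 in bam and 3190.1, 2625.9 and 3045.6 in stwl bam, and was 4.77-fold higher in stwl bam. The middle set was 1.53-fold higher, at 5373 ± 781 in bam and 8212 ± 39.6 in stwl bam (SD, n = 3). The 3′ set overlapped between the genotypes, at 6731 ± 1251 and 6880 ± 623. The same transcript thus separated the genotypes at its 5′ end and not at its 3′ end.

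The ratio of 5′ to 3′ signal for eIF-4a was 0.0937 ± 0.0140 in bam and 0.429 ± 0.0166 in stwl bam (SD, n = 3). The ratio was 4.08-fold higher for the actin control and 2.42-fold higher for GAPDH. In each of the 3 controls all stwl bam arrays exceeded all bam arrays, and the exact permutation test, two-sided, gave p = 0.1, the smallest that 3 against 3 arrays allow, raw and after Benjamini-Hochberg adjustment over the 3. The gene's own probe set for eIF4A was at -0.10 ± 0.07 (SE) in the fit. Where the probe sets of the 10 genes lie along their transcripts is not known here. The part of this 5′ to 3′ difference in their changes was therefore not tested.

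**Figure D5:**
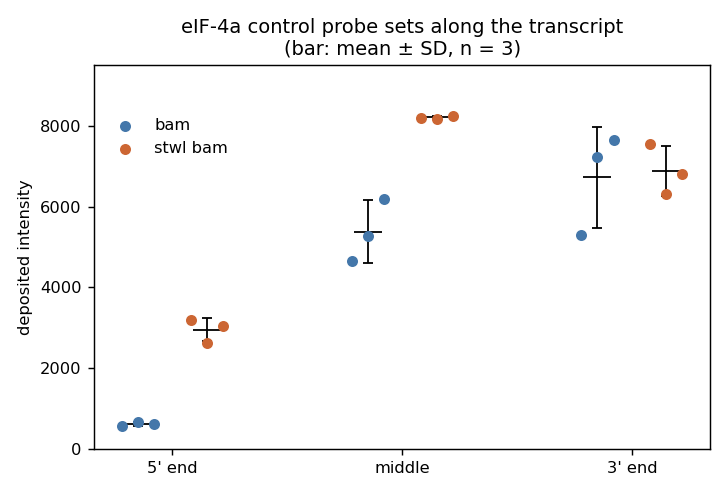
Deposited intensities of the eIF-4a control probe sets at the 5′ end, in the middle and at the 3′ end of the transcript, with points for arrays and bars for mean ± SD (n = 3). The genotypes are far apart at the 5′ end (4.77-fold), closer in the middle (1.53-fold) and overlap at the 3′ end.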

How the data were processed

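Per the submitters' processing notes the arrays were read with GCOS (version and settings not given in the sources used here). For each of 18952 probe sets on 6 arrays the authors deposited 1 linear intensity. Quantile normalization was applied to all but the 183 control sets, then log2 after adding 7.9, the 25th percentile of the deposited intensities, so changes of dim genes are understated. Probe sets at or above the 40th percentile of their array on at least 3 arrays were kept (11477). Genes were named through the platform annotation and RefSeq gene numbers: 13647 probe sets had 1 gene and 402 had several. The kept probe set with the highest mean represented a gene. A linear model of genotype was fitted with limma 3.58.1 (lmFit, eBayes with an intensity trend) in R 4.3.3, two-sided, Benjamini-Hochberg adjusted over all kept probe sets, threshold 0.05. The SE of a difference between paralogues comes from the spread of the within-array differences. The fit was tested on simulated arrays. No pair of arrays was identical.

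The 10 genes and all lists were chosen with earlier results of these data known. All 10 are named with every probe set; from each other translation list, up to 4 passing genes with the largest change, or 2 with the smallest p where none passed; and the 5 profiles nearest to the gene with the largest change. The neighbouring genes were added after the data were seen. eIF4B and larp, whose probe sets disagreed, and the further paralogues were named beyond these rules. eIF4E7, below the filter, takes its values from a fit without it. The array number, 3 per genotype, limits the precision. Alternatives changed normalization, offset, filter, trend, replicate block and probe set rule, set dim values to background, read the middle control sets, and left out each array.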

Additional observations from a re-analysis of the deposited data

Results flagged for a closer look

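The control probe sets for 18S ribosomal RNA, which enter no comparison above, gave signal in stwl bam well above that in bam. The 3′ set had a mean intensity of 1989.6 in stwl bam against 25.8 in bam, the 5′ set 591.3 against 10.9, and the middle set 1083.4 against 71.9. All 3 stwl bam arrays exceeded all 3 bam arrays in each set, and every stwl bam value was above the background of its array. The part of this difference in the changes of the initiation factor genes was not tested.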

How the results depend on the processing

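Under the alternatives run, the changes of eIF3f2 and eIF4E3 stayed between 2.88 and 3.51 and between 1.03 and 1.34, and no called change among the 10 genes turned its sign. Of all tested genes, 974 were called higher and 1142 lower, and with intensities as deposited 967 and 776, so the larger side turned. The other initiation genes called numbered 9, and the elongation and termination genes 3. Centring on the median of all probe sets, added after seeing the data, gave 334 higher and 572 lower genes, 1 other initiation gene (Paip2) and 0 elongation and termination genes in limma. Without the intensity trend the last 2 counts were 4 and 1. With single arrays left out, the counts ranged from 516 to 1007 higher, 557 to 1223 lower, 6 to 13 other initiation genes and 1 to 3 elongation and termination genes, the lowest counts of all genes being those without bam replicate 1. The larger lower counts without bam replicate 2, bam replicate 3 and stwl bam replicate 3 were 751, 680 and 708, with 644 and 591 higher genes without the last pair. The cause was not tested. The replicate numbers did not pair the arrays: deviations of same-numbered arrays correlated at -0.05, -0.03 and 0.00, and 0 of 6 arrays correlated best with its own number. With the replicate block 884 genes were higher and 1014 lower, with 10 and 2 calls in the translation lists. Middle over 3′ ratios of the controls were 1.49, 1.52 and 1.17-fold higher in stwl bam for eIF-4a, actin and GAPDH.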
